A study of Mus musculus with 16 samples.

Results

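The BCL2 family holds the proteins that decide whether the outer membrane of the mitochondrion stays intact when a cell is stressed. Antiapoptotic members (BCL2, BCL-xL from Bcl2l1, MCL1) bind and hold their relatives, the effectors BAX and BAK open pores through which cytochrome c escapes, and the BH3-only proteins (BIM from Bcl2l11, PUMA from Bbc3, BAD, BID, BMF) carry stress signals by occupying the antiapoptotic proteins or by activating the effectors. Lymphocyte precursors depend on this balance: IL-7 signalling is known to sustain Bcl2 and Mcl1, and cells whose antigen receptor fails die through BIM and its relatives. The genes described here are the 10 family genes Bcl2, Bcl2l1, Mcl1, Bcl2l11, Bax, Bak1, Bbc3, Bad, Bid and Bmf, chosen by name and matched by symbol, and all 10 were found among the 38293 genes of the count files.

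The series compares 2 mouse lymphoid cell lines, with no treatment or engineered genetic change named in the labels. P6D4, a SCID.adh murine thymic lymphoma and by that name SCID-derived, stands for the DN3 stage of thymocyte development. The other line, 70Z/3, is a lymphoblast line and stands for pre-B cells. Each line has 3 RNA-Seq libraries, with 45481949 to 54815145 counts in genes, and 1 Miz1 ChIP-Seq library. Each lineage is represented by 1 tumour line, so lineage, cell line and SCID origin cannot be told apart. Nothing in the labels says whether the replicates are separate cultures. The p-values therefore cover the spread among these libraries only, and that spread may be technical. The lines carried the markers of their labels, here in CPM (counts scaled to a common library total after TMM normalisation). The summed level of 10 pre-B markers was 2229 to 2285 CPM in 70Z/3 and 3.41 to 3.70 CPM in P6D4. That of 10 thymocyte markers was 3824 to 3883 CPM in P6D4 and 145 to 149 CPM in 70Z/3. In 70Z/3, 5 thymocyte markers were at 1 CPM or more, with means of 95.2 CPM for Lck, 32.6 for Tcf7 and 15.4 for Lat. In P6D4, 1 pre-B marker was, Cd22 at 2.29 CPM. Markers of other cell types had far lower sums in every library than the markers of the line's own label. The sums were 23.3 to 37.7 CPM over 8 myeloid genes and 1.18 to 5.92 CPM over 6 erythroid genes. Over 8 stromal genes they were 60.9 to 87.4 CPM, with 6 of the genes at 0 in P6D4 and 3 in 70Z/3. Only 2 stromal genes in P6D4 and 1 in 70Z/3 were at 1 CPM or more, so few genes carried the stromal sum.

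P6D4 held nearly no Bcl2 message, a 3.79-fold lower level of Bcl2l1 and a level of Mcl1 that was not told apart from that of 70Z/3, while the BH3-only gene Bmf was higher. Of the 10 genes, P6D4 had 2 at a higher and 6 at a lower level (adjusted p under 0.05, edgeR quasi-likelihood test, Benjamini-Hochberg over 13750 genes); Mcl1 and Bad were not called. The share called, 8 of 10, is near the background, since 86.5% of all tested genes were called, 43.3% higher and 43.2% lower. Against a 2-fold difference (edgeR glmTreat), 3 of the 10 were called, Bcl2 and Bcl2l1 lower and Bmf higher, beside 35.2% of all tested genes. The libraries of the lines did not overlap in 8 of the 10 genes, against 87.4% of all tested genes. The median log2 fold change was -0.30 for the 10 genes and 0.0060 for all tested genes. Gene positions are from RefSeq on GRCm38.p6, and fold changes are P6D4 over 70Z/3 throughout.

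The 250 bases before an annotated start are shown for 3 members. Bcl2 was the member lowest in P6D4 relative to 70Z/3, and Bmf was the highest. Bcl2l11 holds 1 of the 2 forkhead words found near the members. Bmf has 3 listed starts and Bcl2l11 has 2, and 1 window is shown for each. The Bcl2l11 window was picked for its forkhead word, which the other Bcl2l11 window lacks. The sequences are the RefSeq strand of the gene, 5′ to 3′, from chr1:106714291-106714540 (minus strand), chr2:118549687-118549936 (minus strand) and chr2:128125788-128126037 (plus strand) of GRCm38.p6. Capitals mark matches on either strand to CACGTG (the E-box bound by Myc and Max), GGGCGG (the GC box), TTCNNNGAA (the STAT word) and GTAAACA (the forkhead word of FOXO factors), and neighbouring matches may overlap.
Bcl2: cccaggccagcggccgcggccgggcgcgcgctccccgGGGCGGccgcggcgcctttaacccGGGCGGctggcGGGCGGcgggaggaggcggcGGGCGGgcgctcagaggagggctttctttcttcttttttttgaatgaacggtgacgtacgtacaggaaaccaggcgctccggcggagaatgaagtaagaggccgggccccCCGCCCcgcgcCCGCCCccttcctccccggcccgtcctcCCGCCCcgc
Bmf: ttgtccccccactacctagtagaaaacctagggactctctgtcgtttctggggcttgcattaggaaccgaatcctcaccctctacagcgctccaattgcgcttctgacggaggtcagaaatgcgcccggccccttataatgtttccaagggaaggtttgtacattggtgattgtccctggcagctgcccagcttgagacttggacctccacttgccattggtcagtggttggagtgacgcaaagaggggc
Bcl2l11: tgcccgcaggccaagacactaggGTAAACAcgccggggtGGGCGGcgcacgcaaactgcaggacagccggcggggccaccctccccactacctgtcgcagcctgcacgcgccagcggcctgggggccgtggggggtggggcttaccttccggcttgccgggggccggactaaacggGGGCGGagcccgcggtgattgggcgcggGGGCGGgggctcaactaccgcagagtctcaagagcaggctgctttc
The Bcl2 window has 74.8% G or C, against a median of 55.6% over 21263 such windows of protein-coding genes, and it holds 7 matches to GGGCGG. The Bmf window has 54.0% G or C and no match to any of the 4 words. The Bcl2l11 window has 72.0% G or C, 3 GC boxes and 1 forkhead word, GTAAACA. Over the 18 start windows listed for the 10 genes, GGGCGG was present in 10, beside 42.6% of all windows, CACGTG in 2 (Bbc3 and Bax) beside 6.63%, GTAAACA in 2 (Bcl2l11 and Bbc3) beside 2.62%, and TTCNNNGAA in 0 beside 6.58%. Several of these windows belong to the same gene and some overlap, and a match describes letters, not binding.

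**Figure D1:**
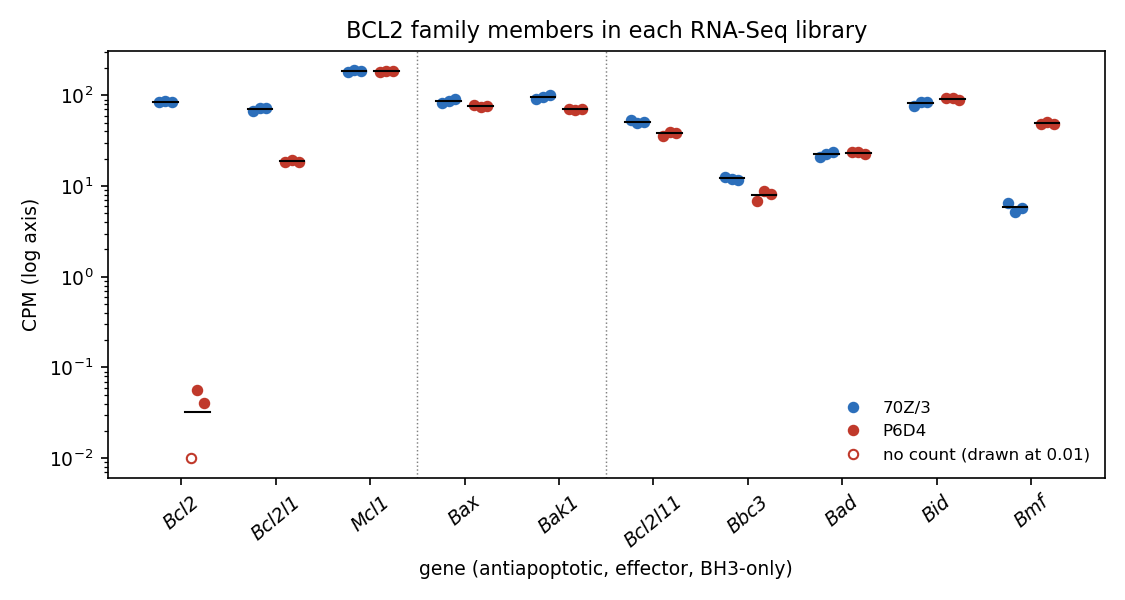
CPM of the 10 BCL2 family genes (y, log axis) in each of the 3 libraries of 70Z/3 (blue) and P6D4 (red), with the mean as a black bar and dotted lines between the antiapoptotic genes, the effectors and the BH3-only genes. Bcl2 falls to 0 (open circle, drawn at 0.01), 0.0569 and 0.0410 CPM in P6D4, Mcl1 lies at the same height in both lines, and Bmf runs the other way.

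Among the antiapoptotic genes, Bcl2 (chromosome 1, 106538176 to 106714290) differed most. It had 4016, 4179 and 3812 counts in the 70Z/3 libraries and 0, 3 and 2 in those of P6D4. That is 85.5, 86.6 and 84.7 CPM against 0, 0.0569 and 0.0410 CPM, so each P6D4 library was at or under the floor of 3 counts that is used here for an undetected gene. The log2 fold change was -11.28 ± 0.13 (SE; adjusted p = 4.01e-17 by edgeR). The ratio of 70Z/3 over P6D4 was 2686, with an exact 95% interval of 1151 to 8274 that covers counting error only. With so few P6D4 counts the fitted value moved with single libraries, to -10.69 without P6D4 replicate 1 and to -11.94 without P6D4 replicate 2.

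Bcl2l1 (chromosome 2, 152758732 to 152833803), whose main product BCL-xL takes over survival at the CD4+ CD8+ stage of the thymus, was lower in P6D4 as well. Its level was 67.0, 73.2 and 72.3 CPM in 70Z/3 and 18.5, 19.3 and 18.2 CPM in P6D4. The lines did not overlap, and the spread within a line was 4.72% and 3.05% of the mean. The log2 fold change was -1.92 ± 0.05 (SE; adjusted p = 1.34e-13 by edgeR), a 3.79-fold lower level (adjusted p = 4.59e-11 against a 2-fold difference). Gene counts do not separate the long product from the shorter, proapoptotic one of the same gene.

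Mcl1 (chromosome 3, 95656944 to 95663179), which encodes a short-lived protein needed by lymphocytes at several stages, was at 183, 187 and 188 CPM in P6D4 and at 182, 190 and 185 CPM in 70Z/3. These libraries overlapped, and the log2 fold change was 0.0037 ± 0.032 (SE; adjusted p = 0.917 by edgeR). Its 95% interval ran from -0.07 to 0.07, so a change of the size seen in Bcl2l1 lies outside it.

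The antiapoptotic transcripts therefore stood in different proportions in the 2 lines. The log2 ratio of Bcl2 to Mcl1 within a library (prior count 2) was -1.09, -1.13 and -1.12 in 70Z/3 and -12.15, -10.91 and -11.17 in P6D4. The mean change was -10.29; the size of this change depends on the prior count, because P6D4 had 5 Bcl2 counts in all. The ratio of Bcl2l1 to Mcl1 went from -1.44, -1.37 and -1.35 in 70Z/3 to -3.30, -3.27 and -3.36 in P6D4, a change of -1.92. The ratio of Bcl2 to Bcl2l1 changed by -8.37. In each of the 3 pairs the libraries of the lines did not overlap. The two-sided exact permutation p was 0.10, also after adjustment over the 3 pairs, which is the smallest that 3 against 3 libraries allow. Of single tested genes, 87.4% did not overlap, and the share over all gene pairs was not computed. With Mcl1 nearly level, the first 2 ratios largely restate the fold changes of Bcl2 and Bcl2l1. The third ratio is fixed by the other 2, so the pairs add no separate support. Gene length cancels in these changes but not in the ratios themselves. Transcript lengths were not used here, so which of these genes had the most transcripts within a line is not given.

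**Figure D2:**
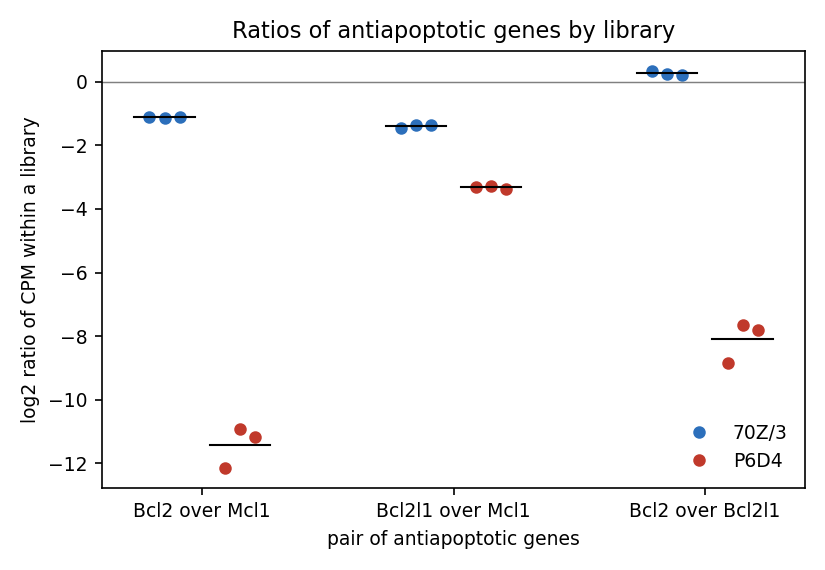
Log2 ratio of CPM (y) of 3 pairs of antiapoptotic genes in each library of 70Z/3 (blue) and P6D4 (red), with the mean as a black bar. Every P6D4 library lies below every 70Z/3 library, which largely restates the levels of the single genes. The mean change was -10.29 for Bcl2 over Mcl1 and -1.92 for Bcl2l1 over Mcl1. Only the change between lines is comparable across pairs.

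The effector genes were both modestly lower in P6D4. Bak1 (chromosome 17, 27019812 to 27028627) was at 70.4, 69.6 and 70.3 CPM in P6D4 and at 91.2, 96.7 and 100.4 CPM in 70Z/3, and its log2 fold change was -0.45 ± 0.04 (SE, adjusted p = 1.22e-07 by edgeR). Bax (chromosome 7, 45461695 to 45466903), a gene that p53 is known to induce, was at 78.2, 75.1 and 77.2 CPM in P6D4 and at 82.6, 86.0 and 90.2 CPM in 70Z/3. Its log2 fold change was -0.17 ± 0.04 (adjusted p = 0.00152). Both genes were thus clearly present in each line, with no overlap between the lines, and neither passed the test against a 2-fold difference.

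The 5 BH3-only genes did not move together. Bmf (chromosome 2, 118528757 to 118549686), whose protein binds the dynein light chain DYNLL2 at the cytoskeleton until it is released, was at 48.3, 51.0 and 47.8 CPM in P6D4 and at 6.53, 5.18 and 5.75 CPM in 70Z/3. That is an 8.42-fold higher level in P6D4, and a log2 fold change of 3.07 ± 0.07 (SE; adjusted p = 4.66e-14 by edgeR, and 8.19e-13 against a 2-fold difference). Every P6D4 library was above every 70Z/3 library.

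Bcl2l11 (chromosome 2, 128126038 to 128162547) encodes BIM, which binds all the antiapoptotic members and is the main killer of autoreactive thymocytes and of lymphocytes deprived of cytokine. It was at 35.7, 39.8 and 38.7 CPM in P6D4 and at 53.0, 49.7 and 50.5 CPM in 70Z/3. The log2 fold change was -0.43 ± 0.05 (SE, adjusted p = 1.95e-06 by edgeR). Bbc3 (chromosome 7, 16308398 to 16318334), the p53 target that encodes PUMA, was at 6.90, 8.94 and 8.27 CPM in P6D4 and at 12.7, 12.1 and 11.7 CPM in 70Z/3, and its log2 fold change was -0.60 ± 0.09 (adjusted p = 2.60e-05). The P6D4 libraries of Bbc3 spread by 12.9% of their mean, the widest of the members other than Bcl2, yet stayed below those of 70Z/3.

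Bid (chromosome 6, 120893119 to 120917062) links death receptors to mitochondria when caspase 8 cleaves its product. Its level was 94.3, 93.7 and 89.0 CPM in P6D4 and 76.3, 84.1 and 85.5 CPM in 70Z/3, and the log2 fold change was 0.17 ± 0.05 (SE, adjusted p = 0.00318 by edgeR). Bad (chromosome 19, 6941861 to 6951905), whose product is kept inactive by AKT phosphorylation and 14-3-3 binding, was at 23.6, 23.9 and 22.8 CPM in P6D4 and at 21.1, 22.8 and 23.7 CPM in 70Z/3. These libraries overlapped, with a log2 fold change of 0.058 ± 0.055 (adjusted p = 0.332) and a 95% interval of -0.061 to 0.18. The annotated span of Bad overlaps Gpr137 and Gm19053, that of Bak1 Ggnbp1, that of Bcl2l11 Acoxl, that of Bcl2l1 Cox4i2 and Gm32211, that of Bcl2 Gm37053 and Mir3473f, and that of Bid Gm17812, and reads that fall in the shared part cannot be assigned with certainty.

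Of 13 further genes of the family, 2 of the near-identical Bcl2a1 copies had no matching symbol, 3 (Bcl2l10, Hrk and Bik) had too few counts to test, and the 8 tested comprised 1 higher and 7 lower in P6D4, all called, beside 86.5% of all tested genes. Their median log2 fold change was -2.46, also with the gene at 0 taken at its bound. Against a 2-fold difference, 1 was higher and 5 were lower, beside 35.2% of all tested genes in either direction. The antiapoptotic A1 gene Bcl2a1b had no count in P6D4 and 7.09, 7.21 and 6.68 CPM in 70Z/3. Against the floor of 3 counts per library, P6D4 was at least 114-fold lower. Reads shared with the other A1 copies make this level uncertain. The antiapoptotic BCL-W gene Bcl2l2 was low in both lines, with means of 0.327 ± 0.0556 CPM (P6D4) and 0.899 ± 0.0651 CPM (70Z/3; SD of 3 libraries) and a log2 fold change of -1.46 ± 0.21 (SE; adjusted p = 2.13e-05 by edgeR).

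A pair of proapoptotic genes outside the 10 had almost no message in P6D4. Pmaip1, which encodes NOXA, a BH3-only protein that binds MCL1 and A1, had 0, 1 and 0 counts in P6D4 and 32.8, 31.6 and 31.7 CPM in 70Z/3. The 70Z/3 to P6D4 ratio was 5029 (exact 95% counting interval 902 to 198669). Its 1 count in P6D4 was in replicate 2, without which the fitted log2 fold change went from -11.81 to -13.61, a value that depends on the prior count. Bok, a relative of BAX and BAK, had 5, 0 and 0 counts in P6D4 and 1173, 1287 and 1217 counts in 70Z/3, for a ratio of 823 (352 to 2535). All of its P6D4 counts came from replicate 1, without which the fitted log2 fold change went from -9.57 to -13.31 and again depends on the prior count. Bcl2l14 was the family gene besides Bmf that was over 2-fold higher in P6D4, at 9.25, 10.9 and 10.4 CPM against 1.51, 1.31 and 1.55 CPM. Bcl2l15, Bcl2l12 and Bcl2l13 were lower, with log2 fold changes of -3.47, -0.40 and -0.14.

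**Figure D3:**
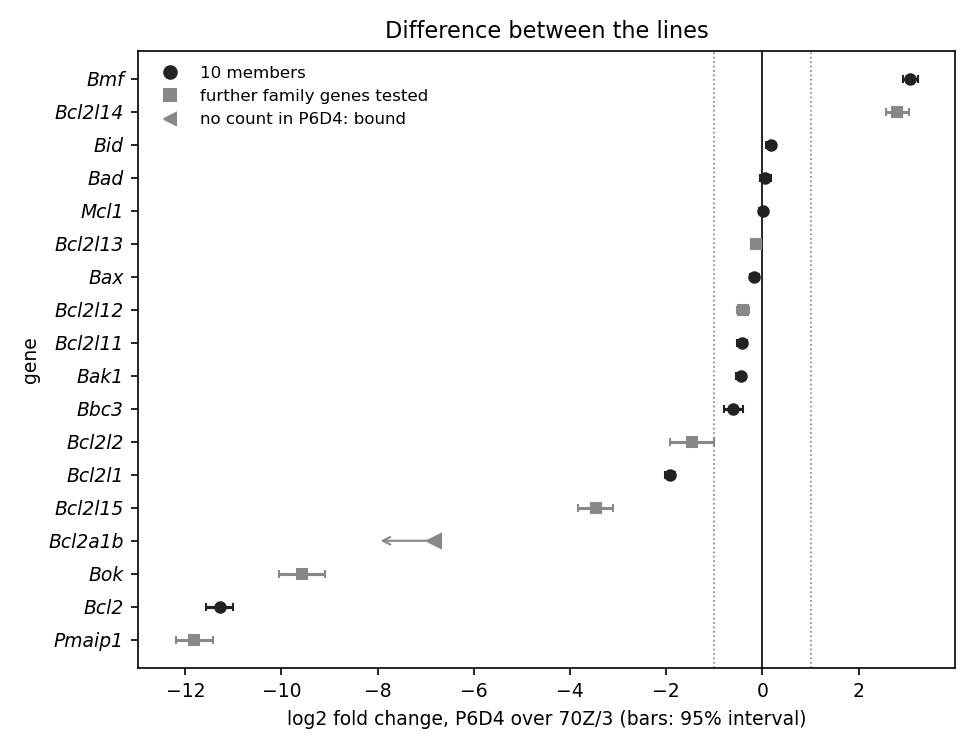
Log2 fold change of P6D4 over 70Z/3 (x) for the 10 members (black circles) and the 8 further family genes tested (grey squares), with 95% intervals from the edgeR fit and dotted lines at -1 and 1. Pmaip1, Bcl2 and Bok lie far to the left and rest on few P6D4 counts. The intervals drawn for Pmaip1, Bcl2 and Bok understate counting error and are narrower than the exact ones given in the text. The triangle is the bound of Bcl2a1b, Mcl1 lies at 0.0037, and Bmf and Bcl2l14 lie over 2-fold to the right.

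Genes that act beside the family fall into 5 lists, whose counts are to be read against the 86.5% of all tested genes that were called (43.3% higher, 43.2% lower) and the 35.2% called against a 2-fold difference. In the caspase cascade, all 15 genes tested were called, near that background, with 5 at a higher and 10 at a lower level in P6D4 (median -0.36 on the log2 scale). Cradd, the adaptor of caspase 2, and Casp6, an executioner caspase, were higher, by 1.89 ± 0.06 and 1.12 ± 0.07 (SE) on the log2 scale that is used for all these lists. The inflammatory caspase genes Casp1 and Casp4 had almost no message in P6D4: Casp1 had 0, 0 and 1 counts there and a mean of 46.2 CPM in 70Z/3 (ratio 7257, interval 1302 to 286672), and Casp4 had none and was at least 92.5-fold lower.

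Of 11 genes of mitochondrial release tested, 4 were higher, 4 lower and 3 not called (median 0.04), beside 86.5% called of all tested genes, and every fold change lay between -0.91 and 0.63 on the log2 scale. Bnip3, a mitophagy receptor, and the channel gene Vdac1 were higher by 0.63 ± 0.09 and 0.53 ± 0.03 (SE). Diablo, which encodes SMAC, the antagonist of inhibitor of apoptosis (IAP) proteins, and the mitophagy receptor gene Bnip3l were lower, with log2 fold changes of -0.91 ± 0.04 and -0.64 ± 0.08. Of 7 IAP genes, 1 was higher and 6 lower (median -0.65), beside 43.3% and 43.2% of all tested genes. Birc5, which encodes survivin, was higher by 0.52 ± 0.04. Naip5 had 3 counts in P6D4 (2, 0 and 1) against 380 in 70Z/3, for a ratio of 142 (48.1 to 690.1), and Naip2 had a log2 fold change of -3.46 ± 0.14; both belong to a cluster of near-identical copies, so their counts are uncertain.

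Among 17 tested regulators of family proteins, 6 were higher, 10 lower and 1 not called (median -0.17), beside 86.5% called of all tested genes, and Pim1 alone passed against a 2-fold difference, beside 35.2% of all. The kinases Pim1 and Pim2, which phosphorylate BAD, were higher by 1.37 ± 0.08 and 0.56 ± 0.06 (SE). Akt1, another BAD kinase, and Btrc, an F-box subunit, were lower, with log2 fold changes of -0.64 ± 0.04 and -0.48 ± 0.05. Of 13 transcription regulators tested, 7 were higher and 6 lower (median 0.11), again beside 86.5% called of all. Myc and Foxo3, a known activator of Bcl2l11, were higher by 1.84 ± 0.04 and 0.88 ± 0.06, while Myb and Foxo1 were at -1.41 ± 0.05 and -0.84 ± 0.05. The part of these regulators in the levels of the family genes was not tested.

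**Figure D4:**
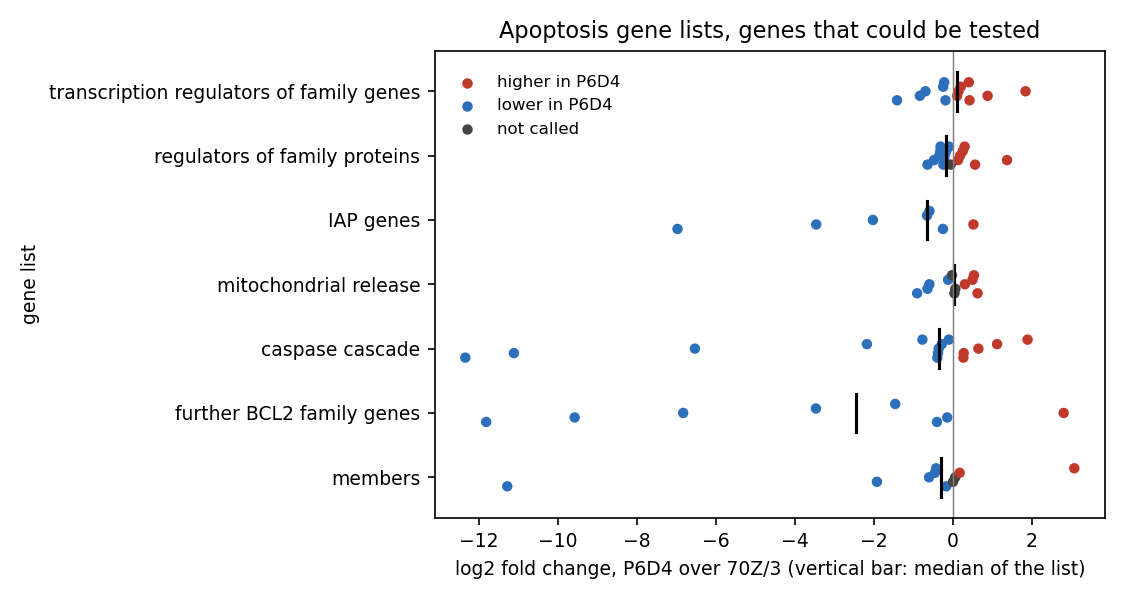
Log2 fold change of P6D4 over 70Z/3 (x) of each gene that could be tested in the 10 members and 6 further lists (y), red where higher, blue where lower and grey where not called, with the list median as a black bar and genes without a count in P6D4 at their bound. The 11 genes of mitochondrial release lie between -0.91 and 0.63, whereas the caspase list and the further family genes reach values below -9.

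Likeness over the 6 libraries was measured as the root mean square difference of log2 CPM among 11729 tested genes with an established symbol. The 3 genes nearest to Bcl2 were Fam3c (0.25), Fuca2 (0.31) and Slc16a6 (0.33), at 74.9, 87.5 and 66.7 CPM in 70Z/3 and under 0.1 CPM in P6D4. Nearest to Bcl2l1 were Bmt2 (0.099), Tle4 (0.11) and Tulp3 (0.13). Nearest to Mcl1 were Hdac2 (0.029), Akap8 (0.036) and Aldh9a1 (0.038). With 2 lines of 3 libraries each, such a likeness mostly restates the level in each line.

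Miz1 (gene Zbtb17), a transcription factor with zinc fingers, is one that earlier work on B cell precursors linked to Bcl2 and to IL-7 signalling. In the authors' peak lists, 0 of the 10 genes had a Miz1 summit within 1 kb of an annotated start in P6D4 and 0 in 70Z/3, beside 0.858% and 2.8% of 17492 protein-coding genes. Within 5 kb it was also 0 of 10 in each list (2.89% and 4.81% of all genes), as it was for summits with a −log10 q of at least 5 (0.8% and 2.29%). At such shares, fewer than 1 of 10 genes would hold one, so the counts of 0 are near the background. No summit lay inside any of the 10 genes in either list. The nearest summit to Bcl2 was 18.6 kb upstream in P6D4 (authors' fold enrichment 6.92) and 141 kb upstream in 70Z/3. The nearest to Bmf was 7.81 kb upstream of its start in P6D4 (chromosome 2, 118557391 to 118557990, authors' fold 6.39) and 197 kb away in 70Z/3. The nearest to Bad was 13.2 kb downstream of a start in 70Z/3 (authors' fold 6.67) and 693 kb away in P6D4. These folds lie near the median of their lists, 6.54 in P6D4 and 7.28 in 70Z/3. The median distance over the members was 160.1 kb in P6D4 and 186 kb in 70Z/3, against 107 and 110.1 kb over all genes. The lists held 21629 peaks in P6D4 and 10462 in 70Z/3, so a distance is to be read within its own list. With 1 library per line, 2067731 of 60841509 tags were kept in P6D4 and 4484034 of 30865119 in 70Z/3. Binding too weak to be called was therefore not detectable.

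**Figure D5:**
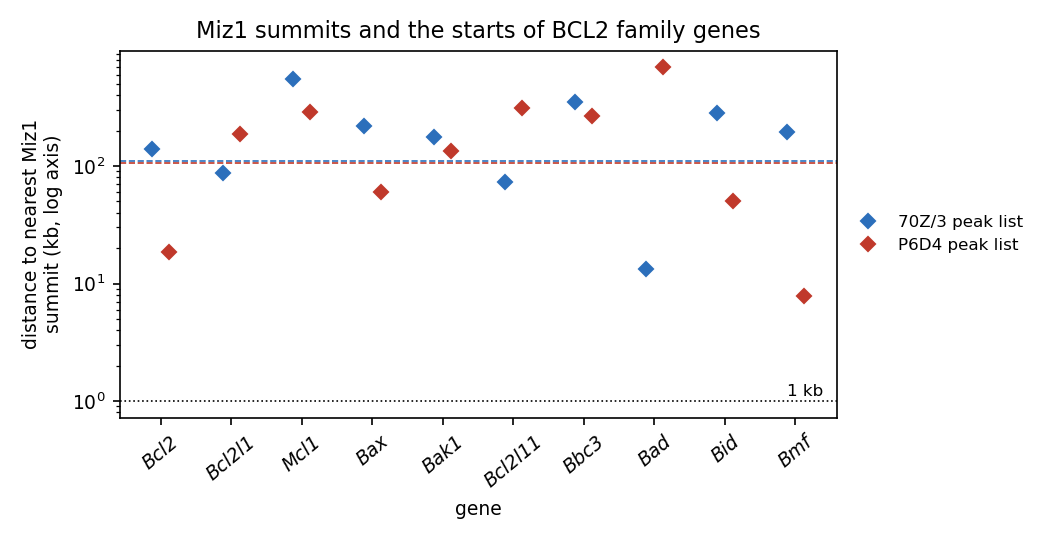
Distance in kb (y, log axis) from the nearest annotated start of each of the 10 genes to the nearest Miz1 summit in the 70Z/3 (blue) and P6D4 (red) peak lists; dashed lines are the medians over 17492 genes (110.1 and 107 kb) and the dotted line is 1 kb. Every point lies above 7 kb, with Bmf in P6D4 (7.81 kb), Bad in 70Z/3 (13.2 kb) and Bcl2 in P6D4 (18.6 kb) the nearest.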

How the data were processed

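RNA-Seq counts were taken as the authors deposited them: whole-number read counts per Ensembl gene, not normalised. TopHat2 2.0.10, Bowtie2 2.10, HTSeq, SAMtools and bedtools, and the builds GRCm38 and mm10, are named in the submitters' processing notes. The sources used here do not give whether counting used strand. The summary lines of HTSeq stayed out of library sizes: 14.5 to 16.0% of unique reads fell outside genes and 0.382 to 0.424% were ambiguous. For each gene count there were 1.10 to 1.44 non-unique alignments, so near-identical genes are partly uncounted. Peaks were called by the authors with MACS 2.0.10.20120913 at a q-value threshold of 0.01, per the file headers; each peak carries a deposited pileup signal, a fold (ratio over local background), a −log10 p and a −log10 q score.

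With TMM scaling, the quasi-likelihood F test of edgeR 4.0.16 (R 4.3.3; filterByExpr; cell line as the only term) was run, over all 13750 genes that passed the filter, which included all 10 members. CPM use TMM-scaled library sizes. SE is the size of the log2 fold change divided by the square root of F and understates counting error at few counts; for genes with 10 counts or fewer in a line an exact (Clopper-Pearson) interval of the ratio, or a bound against 3 counts per library, is given, both for counting error only. No libraries were duplicates: chi-square over degrees of freedom was 2.56 to 14.7 for pairs within a line. The edgeR fit was tested on simulated data. Symbols were found for 36345 genes. Starts and sequences are from RefSeq (GRCm38.p6), whose tables list 18 starts for the 10 genes and are not complete.

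The members and lists were chosen with earlier results of these data known. Named were the 10 members, all further family genes and, of each other list, the 2 most raised and 2 most lowered called genes by fitted fold change (1 CPM or more in the line where it was higher). Birc3 was named besides these. Values of some listed genes are not reported here. DESeq2 1.42.0, limma-voom (limma 3.58.1), other scalings and filters, each library left out and a replicate block were the alternatives. Exact tests used scipy 1.17.1 and figures matplotlib 3.10.9. Of the ChIP samples, those for histone marks and the inputs are not analysed here.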

Additional observations from a re-analysis of the deposited data

How the results depend on the processing

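Across 13 alternative settings of the RNA comparison (edgeR RLE and upper-quartile scaling, DESeq2, limma-voom, 2 filters on low counts, each of the 6 libraries left out, and the replicate block), the count of members called was 2 higher and 6 lower in P6D4 under each. The log2 fold change ran from -11.94 to -10.69 for Bcl2, from -1.96 to -1.87 for Bcl2l1 and from 2.99 to 3.16 for Bmf. The adjusted p of Bax reached 0.0226 and that of Bid 0.0144 at most across these fits, and neither lost its call. Every setting scales a gene to the rest of its library, where 86.5% of tested genes were called in the main fit. A difference in total RNA per cell was not tested, so small differences such as those of Bax and Bid are relative to each library. Mcl1, not called under any setting (adjusted p 0.104 to 0.979), changed sign around 0: its log2 fold change was -0.019 with edgeR RLE scaling and -0.020 with DESeq2, and with 1 library left out it ran from -0.012 (without 70Z/3 replicate 1) to 0.018 (without P6D4 replicate 1), and was -0.0054 without 70Z/3 replicate 3. Bad was not called under any setting either (adjusted p 0.0698 to 0.872). The replicate numbers showed no sign of pairing: deviations of same-numbered libraries correlated at -0.07, -0.04 and 0.02, beside -0.06 to 0.10 for other pairs. With 3 libraries per line, such correlations cannot show how the replicates were made. With the replicate block, 2 members were higher and 6 lower, and 5867 of all tested genes were higher and 5847 lower, against 5955 and 5936 without it. Counts of the other lists stayed within 1.5 times of the values given. Tested against a 1.5-fold difference instead of 2-fold, the members called remained 3 in number. Miz1 summits within 5 kb, or a −log10 q of at least 5, left 0 members with a summit in each list; since no listed gene had a summit within 1 kb, the overlap rule had nothing to compare. Levels per kilobase were not run, because transcript lengths were not used here. Few counts limit the folds of Bcl2, Pmaip1, Bok, Bcl2a1b, Casp1, Casp4 and Naip5 in P6D4.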
